A study of Arabidopsis with 12 samples.

Results

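The light response of the flu toc33 double mutant of Arabidopsis was described from 6 of the 12 RNA-seq libraries of a study on chloroplast-to-nucleus signalling. The libraries were chosen by genotype alone: 3 libraries of flu/toc33-1 seedlings kept in the dark for 4 h (dark) and 3 libraries of flu/toc33-1 seedlings kept in the dark for 4 h and then given 1 h of light (light). By the labels both groups carry the flu mutation and the toc33-1 allele; the level of TOC33, given below, differs 12.2-fold between them, so the shared genotype is stated as labelled. The seedlings were 7 d old by the sample titles, whereas the design text makes them 1 d younger, and had grown in continuous light. The titles name seedlings and the tissue field names leaf. No other genotype entered any value below, so what flu or toc33-1 contributes was not tested. No group stayed in the dark for the last hour, and effects of light cannot be told apart from those of 1 h of time.

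FLU is a plastid protein that restrains tetrapyrrole synthesis in darkness. Without it protochlorophyllide, the substrate of light-dependent chlorophyll synthesis, accumulates in the dark and generates singlet oxygen when light returns. TOC33 is a GTP-binding receptor of the translocon in the outer chloroplast membrane, through which precursors made in the cytosol enter the plastid, and TOC34 is its close relative. Light acts on nuclear genes through phytochrome, cryptochrome and UV-B receptors, through the clock and through sugars made by photosynthesis, and misfolded protein acts through heat shock factors.

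The values are TPM, the share of a gene's transcripts in a library corrected for length, summed over the transcripts of a locus. TPM carries no depth, so no counting error can be given. On the log2(TPM + 1) scale, Pearson's r across genes was 0.995 to 0.996 between replicates and 0.892 to 0.893 between dark and light libraries; genes are not independent replicates. Whether replicates were grown apart is not stated in the labels, so a p-value here reflects the spread among these libraries alone, which may be technical. A gene was called when its adjusted p in limma was under 0.05, with Benjamini-Hochberg adjustment over the 19005 genes tested. Differences are light minus dark on the log2(TPM + 1) scale, which understates changes of low genes, and standard errors are those of limma. "Rose" and "fell" are used of called genes only.

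Of the 19005 genes tested 76.4% were called, 43.1% higher and 33.3% lower in light. Called changes of at least 2-fold were seen in 16.5% of genes, 9.44% higher and 7.07% lower, and these shares are the background for every list below. Of the genes tested, 346 reached 1 TPM in light libraries alone and 161 in dark libraries alone. Such genes had to differ to be tested. The endoplasmic reticulum, amino acid breakdown, light signalling, clock and glucosinolate lists each held 1 of the first kind. The nitrogen, ethylene, cytokinin and gibberellin, SAUR and xyloglucan transferase lists each held 1 of the second. The jasmonate list held 2 of the first kind and 1 of the second. Further lists with such genes are marked below. The median log2 difference of all genes was 0.07. Of the 1794 genes at least 2-fold higher, 51 rose by a log2 of 4 or more, and of the 1344 at least 2-fold lower 35 fell by as much. In 78.9% of the genes tested every library of one group lay above every library of the other. Which direction held the majority was a matter of scaling: 7146 genes were higher and 7377 lower after quantile normalization, and 7262 and 7303 after median-ratio scaling.

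The defining leaf markers were abundant. Of 6 mesophyll markers 5 rose and RBCS1A, the most abundant, fell, each by less than 2-fold and without overlap of the groups. Their summed level, most of it RBCS1A, was 23811, 24468 and 24232 TPM in the dark libraries and 24286, 24020.5 and 23785 TPM in the light libraries, and the groups overlapped. The 9 root markers summed to 18.1, 23.4 and 20.3 TPM in the dark libraries and 20.6, 21.2 and 18.5 TPM in the light libraries, and IRT1 and PLT1 stayed under 1 TPM in every library. Of 6 epidermis markers 5 rose and GL2, a regulator of hair cells, fell by a log2 of 1.05; their sum was 1445, 1383 and 1440.4 TPM in the dark libraries and 2498, 2512 and 2523 TPM in the light libraries. The lipid transfer protein gene LTP1 made up most of that sum. Of 7 vascular markers 4 fell and 2 rose, and their sum was 329, 337 and 327 TPM in the dark libraries and 228, 233 and 233 TPM in the light libraries. Seed storage genes set dark replicate 2 apart from the other dark libraries, with values given beside that list. The epidermis and vascular sums moved with the light for every library, and their part in the results below was not tested. In whole seedlings or leaves, fewer cells of a type and less RNA per cell cannot be told apart.

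The targeted gene was read before the rest. TOC33 (AT1G02280) stood at 48.4, 48.2 and 49.4 TPM in the dark libraries and at 4.28, 3.88 and 3.76 TPM in the light libraries. Every light library was therefore far below every dark library, a log2 difference of -3.32 ± 0.0546 (SE; limma, adjusted p = 3.57e-12). Both transcripts listed for the locus were lower: AT1G02280.1 from 40.8, 40.9 and 41.1 TPM to 3.69, 3.65 and 3.53 TPM, and AT1G02280.2 from 7.54, 7.34 and 8.25 TPM to 0.590, 0.229 and 0.236 TPM. The groups thus differed in the transcript level of the mutated gene. The labels do not give the transcript level that toc33-1 leaves, and the part of this difference in the results below was not tested. Every result below compares libraries labelled flu/toc33-1 dark with libraries labelled flu/toc33-1 light. TOC34 (AT5G05000) stood at 30.8, 26.9 and 29.1 TPM in the dark libraries and at 40.2, 39.7 and 38.5 TPM in the light libraries, and rose by a log2 of 0.44 with no overlap. FLU (AT3G14110) was not called, at 224, 214 and 206 TPM in the dark libraries and at 208, 204 and 209 TPM in the light libraries; it was called lower under quantile normalization (log2 difference -0.09, adjusted p = 0.0303), median-ratio scaling (-0.14, adjusted p = 0.00572) and without dark replicate 3 (-0.08, adjusted p = 0.0421). EX1, the plastid protein through which singlet oxygen signals, was not called either, at a log2 difference of 0.02. Its relative EX2 stood at 110.1, 109.6 and 107 TPM in the dark and 61.2, 62.2 and 63.9 TPM in the light and fell by a log2 of 0.79.

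**Figure D1:**
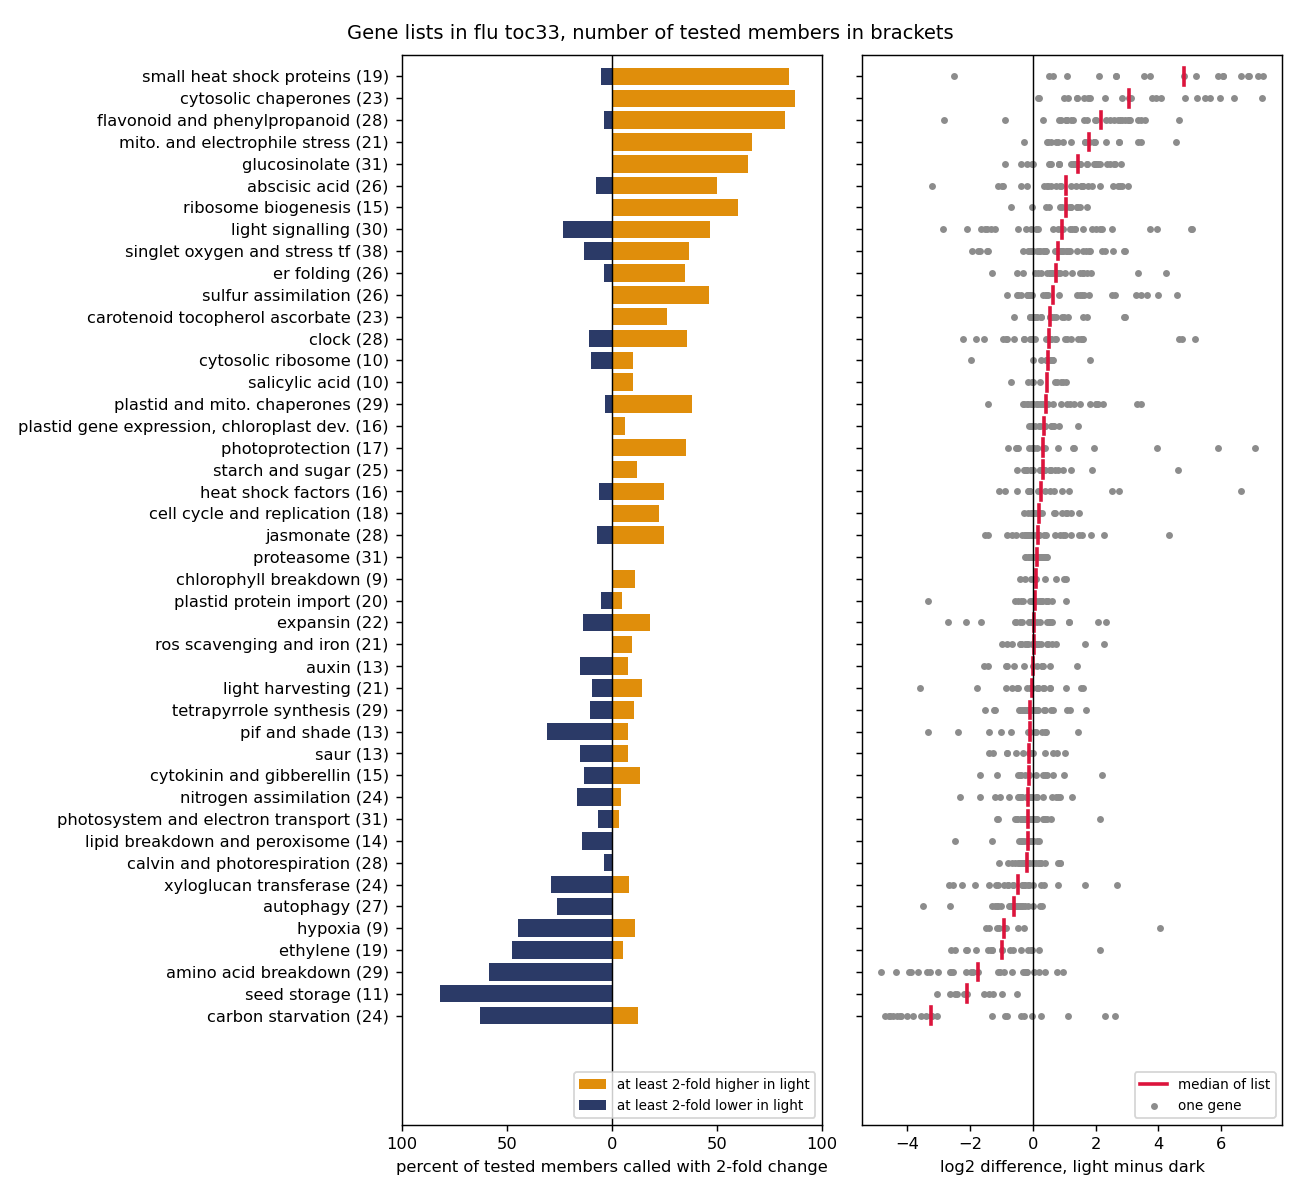
Gene lists ordered by median difference. Left, percent of tested members called with at least a 2-fold change (orange, higher in light; navy, lower); right, log2 difference of each tested member (grey) and the list median (red). Small heat shock proteins (median 4.82, or 2.65 over the 10 members that reached 1 TPM in both groups) and cytosolic chaperones (median 3.05) stand at the top and carbon starvation genes (median -3.23) at the bottom.

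Cytosolic chaperones and small heat shock proteins were the lists with the highest medians, in an order that depended on which members entered. Heat shock factors are transcription factors that switch chaperone genes on when proteins unfold. Of 16 tested factors 9 rose and 4 fell, 4 and 1 of them at least 2-fold, and the list median was 0.28. Without light replicate 1, 2 or 3, where HSFA2 fell short of the filter, it was 0.17, 0.17 and 0.20. HSFA2 (AT2G26150), the factor that sustains the heat response, stood at 0.204, 0.0641 and 0.287 TPM in the dark libraries and at 118, 120.03 and 114 TPM in the light libraries. It was nearly silent in all 3 dark libraries and high in all 3 light libraries, a log2 difference of 6.65 ± 0.0739 (SE). Every dark library was under 1 TPM, so HSFA2 could be tested only because it was high in light. Class B factors mainly repress or tune. HSFB2B stood at 3.82, 3.58 and 3.44 TPM in the dark and 30.1, 31.3 and 29.5 TPM in the light, and HSFB1 at 11.3, 11.3 and 11.5 TPM in the dark and 69.2, 68.6 and 71.2 TPM in the light, without overlap in either case. HSFB2A and HSFB4 rose by a log2 of 1.14 and 0.92. The constitutive factor HSFA1B, which starts the response, fell by a log2 of 0.49, HSFA3 by 0.89 and HSFA5, a partner of HSFA4 factors, by 1.08.

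Small heat shock proteins hold unfolding proteins in a soluble state. Of 19 genes tested 17 rose and 1 fell, 16 and 1 of them at least 2-fold, and the list median was 4.82. Of these, 9 reached 1 TPM in light libraries alone, so they could be tested only because they were high in light. Of the other 10, 8 rose and 1 fell, with a median of 2.65. Leaving out any 1 light library also left 10 tested, 7 of them with a rise of at least 2-fold, and medians of 2.63 to 2.67, below those of the cytosolic chaperones. Their summed level was 198, 193 and 195 TPM in the dark libraries and 2015, 1938 and 1977 TPM in the light libraries. HSP17.6A (AT5G12030) stood at 0.424, 0.602 and 0.1702 TPM in the dark and 209, 195 and 195 TPM in the light libraries. The mitochondrial member HSP23.6-MITO (AT4G25200) stood at 0.0663, 0.134 and 0 TPM in the dark and 71.2, 68.4 and 71.2 TPM in the light libraries, a log2 difference of 6.06 ± 0.0679 (SE). AT1G59860 and AT1G53540, further members of the list, stood at 0.574 ± 0.2996 to 102 ± 4.21 TPM and at 0.303 ± 0.0458 to 77.1 ± 1.07 TPM (SD, n = 3), dark to light. HSP21, the plastid member, was listed at 0 in all dark libraries and stood at 10.8 ± 0.392 TPM in light. HSP17.6A, HSP23.6-MITO, AT1G59860, AT1G53540 and HSP21 are all among the 9 that could be tested only because they were high in light. AT4G21870 went the other way: it stood at 137, 132 and 134 TPM in the dark and 23.2, 22.95 and 22.2 TPM in the light, and fell by a log2 of 2.50.

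All 23 tested cytosolic chaperones and co-chaperones rose, 20 of them at least 2-fold, and the list median was 3.05. Their summed level was 1384, 1386 and 1402 TPM in the dark libraries and 9036, 9386 and 9143 TPM in the light libraries, with no overlap. HSP70 (AT3G12580), a heat-induced member of the HSP70 family of ATP-driven folding machines, stood at 4.34, 4.29 and 4.75 TPM in the dark and 845, 880.2 and 857 TPM in the light. HSP90.1 (AT5G52640), the inducible cytosolic HSP90, which folds kinases and receptors, stood at 5.81, 5.98 and 4.98 TPM in the dark and 536, 566 and 554 TPM in the light libraries, a log2 difference of 6.40 ± 0.05498 (SE; limma, adjusted p = 4.93e-14). HSP101 (AT1G74310), which pulls proteins out of aggregates, stood at 2.68, 2.55 and 2.55 TPM in the dark and 176, 186 and 178 TPM in the light, and ROF2 (AT5G48570), a peptidyl-prolyl isomerase that binds HSP90, at 2.52, 2.14 and 2.81 TPM in the dark and 206, 217 and 219 TPM in the light. These 4 genes were under 6 TPM in every dark library and over 170 TPM in every light library. The constitutive HSC70-1 (AT5G02500) was already abundant at 731, 748 and 756 TPM in the dark and rose by a log2 of 1.63. AT3G09440 rose from 27.7 ± 0.654 to 1284 ± 25.5 TPM. HSC70-1, HSP70 and AT3G09440 are similar in sequence, and the division of reads among such copies, as among the small heat shock genes, is uncertain.

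In the endoplasmic reticulum, where secreted proteins fold, 22 of 26 tested genes rose and 3 fell, 9 and 1 at least 2-fold, and the list median was 0.73. The largest rise was that of TIN1 (AT5G64510), induced by tunicamycin, from 0.264 ± 0.0752 to 23.1 ± 1.03 TPM. TIN1 could be tested only because it was high in light, and over the other 25 genes the list median was 0.70. ERDJ3A, a J-domain partner of the HSP70 of this compartment, rose from 0.978 ± 0.115 to 19.2 ± 0.543 TPM. The HSP70 members BIP1 and BIP2 rose by a log2 of 1.71 and 1.86 and the lectin chaperone CNX1 by 1.60. IRE1A, a sensor that splices the mRNA of a stress factor, fell from 39.9 ± 1.39 to 15.5 ± 0.549 TPM. ERO2 and CRT3, an oxidase for disulfide bonds and a calreticulin, fell by a log2 of 0.51 and 0.33.

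Chaperones and proteases of plastids and mitochondria were called higher in 20 of 29 cases and lower in 5, 11 and 1 at least 2-fold, and the list median was 0.43. The mitochondrial disaggregase CLPB4 (AT2G25140) stood at 4.301, 3.97 and 4.06 TPM in the dark and 52.4, 55.9 and 54.1 TPM in the light libraries and the mitochondrial HSP70 MTHSC70-2 at 18.1, 17.7 and 19.7 TPM in the dark and 192, 198 and 190.4 TPM in the light. HSP90-6, the mitochondrial HSP90, rose by a log2 of 2.07. In plastids the disaggregase CLPB3 stood at 33.7, 35.8 and 35.7 TPM in the dark and 137, 151 and 144 TPM in the light, and the chaperonin subunit Cpn60beta2 rose by a log2 of 2.24. CLPD, a chaperone of the Clp protease induced by dehydration and senescence, fell from 152 ± 2.42 to 56.3 ± 2.697 TPM, and the Clp core subunits CLPR4 and CLPR2 fell by a log2 of 0.30 and 0.29.

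**Figure D2:**
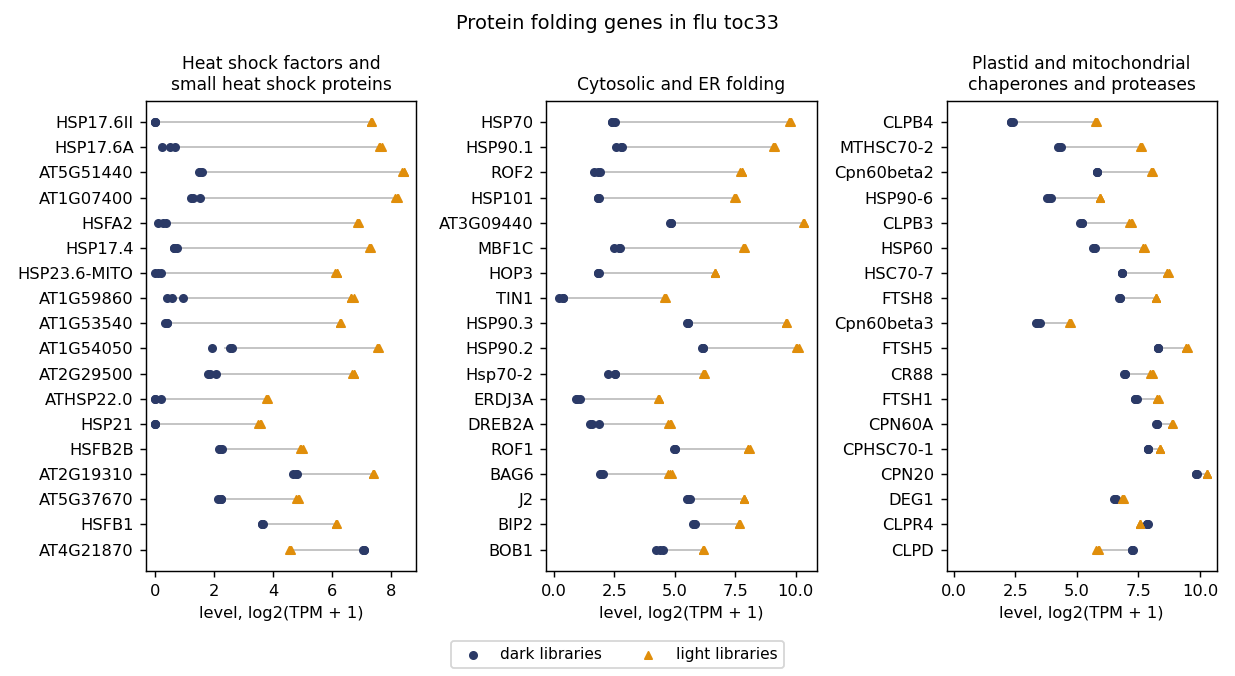
Level of each protein folding gene in every library on the log2(TPM + 1) scale, dark libraries as navy circles and light libraries as orange triangles, with a grey line between group means. The 18 called members with the largest differences are drawn in each panel; HSFA2, HSP70 and CLPB4 lie far to the right in light, and AT4G21870 and CLPD to the left.

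The machinery of plastid protein import moved little beside TOC33 itself. Of 20 genes 9 rose and 5 fell, 1 in each direction at least 2-fold, and the list median was 0.08, which turned to -0.003 under median-ratio scaling. TIC20-IV, a form of an inner membrane channel protein, stood at 4.51, 4.46 and 5.601 TPM in the dark and 11.6, 10.7 and 11.4 TPM in the light and rose by a log2 of 1.07. TOC159, the large receptor, fell from 184 ± 2.21 to 125 ± 4.63 TPM. SP1, the ubiquitin ligase that removes TOC proteins, fell by a log2 of 0.46. TOC75-III, the outer membrane channel, rose by a log2 of 0.43, the accessory receptor TOC64-III by 0.48 and TIC55, an inner envelope protein, by 0.61. Apart from TOC33 and TIC20-IV, these genes changed by less than 2-fold.

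Genes that mark carbon starvation had the lowest median of all lists. Of 24 tested genes 19 fell and 4 rose, 15 and 3 at least 2-fold, and the list median was -3.23. Their summed level was 9202, 9200.2 and 9235 TPM in the dark libraries and 1043, 1072 and 1081 TPM in the light libraries. DIN10 (AT5G20250), a dark-inducible raffinose synthase family member, stood at 1082, 1080.2 and 1083 TPM in the dark and 46.7, 51.4 and 47.4 TPM in the light libraries, and DRM1 and DRM2, dormancy-associated genes, fell by a log2 of 4.70 and 4.01. BT2 (AT3G48360), a BTB scaffold protein repressed by sugar, stood at 777, 727 and 760.4 TPM in the dark and 28.8, 32.7 and 30.2 TPM in the light libraries, a log2 difference of -4.58 ± 0.0448 (SE; limma, adjusted p = 1.04e-13). AKINBETA1 (AT5G21170), a regulatory subunit of SnRK1, the kinase that senses energy shortage, stood at 278, 287 and 289 TPM in the dark and 11.2, 10.9 and 11.6 TPM in the light libraries. Every dark library was more than 10 times above every light library for these 5 genes.

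The trehalose phosphate synthase-like genes of class II did not move together. TPS8 (AT1G70290) stood at 109, 107 and 106 TPM in the dark and 4.75, 4.44 and 4.199 TPM in the light libraries and fell by a log2 of 4.31, while TPS5 (AT4G17770) stood at 5.06, 4.67 and 4.85 TPM in the dark and 34.7, 35.2 and 34.7 TPM in the light and rose by a log2 of 2.61. The log2 differences were -3.82 for TPS9, -3.24 for TPS10, -4.22 for TPS11, -1.28 for TPS6 and -0.27 for TPS7; these 5 were chosen after their values were seen. The group S bZIP factor BZIP11, whose translation sucrose represses, rose from 17.1 ± 0.523 to 88.3 ± 3.06 TPM, and DIN9, a mannose phosphate isomerase, from 6.43 ± 0.445 to 15.3 ± 0.849 TPM. Among other bZIP genes BZIP1 and BZIP63 fell by a log2 of 3.22 and 3.40, also chosen after their values were seen.

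Breakdown of amino acids, which feeds respiration when sugar is short, fell in 23 of 29 genes and rose in 4. None rose and 17 fell at least 2-fold, and the median was -1.75. Quantile normalization and median-ratio scaling left 3 and 2 genes called higher, with 24 called lower under each. Their summed level was 4213, 4215 and 4234 TPM in the dark libraries and 962, 999.8 and 989 TPM in the light libraries. ERD5 (AT3G30775), proline dehydrogenase, stood at 634, 629 and 633 TPM in the dark and 20.2, 22.8 and 20.5 TPM in the light libraries. MCCA (AT1G03090), a subunit of methylcrotonyl-CoA carboxylase in leucine breakdown, stood at 352, 351 and 353 TPM in the dark and 16.6, 15.9 and 15.9 TPM in the light libraries, a log2 difference of -4.36 ± 0.03001 (SE; limma, adjusted p = 1.78e-14). BCAT2, a branched-chain aminotransferase, fell from 191 ± 1.72 to 11.5 ± 0.773 TPM and THA1, threonine aldolase, from 134 ± 2.63 to 8.23 ± 0.502 TPM. In all 4 genes the light libraries held under 8% of the lowest dark library. TAT7, a tyrosine aminotransferase that feeds tocopherol synthesis, rose from 76.2 ± 0.573 to 149.6 ± 6.59 TPM, and GDH3, a glutamate dehydrogenase, by 0.76 at a level under 2 TPM.

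Autophagy, the delivery of cytoplasm to the vacuole, fell in 24 of 27 genes and rose in 2, with 7 falls and no rise of 2-fold or more and a median of -0.59. The summed level was 1545, 1564 and 1549.5 TPM in the dark libraries and 641, 652 and 653 TPM in the light libraries. ATG8 proteins are the ubiquitin-like tags of the autophagosome. All 9 ATG8 genes fell, ATG8E and ATG8F the most of the list and the other 7 by less than ATG5 did. ATG8E (AT2G45170) stood at 401, 407 and 412 TPM in the dark and 32.99, 33.4 and 38.99 TPM in the light libraries and ATG8F (AT4G16520) at 266, 264 and 259 TPM in the dark and 42.5, 39.95 and 41.5 TPM in the light libraries. The groups were far apart for both, with log2 differences of -3.50 and -2.64. ATG5, part of the conjugation machinery, and ATG11 and ATG13, partners of the ATG1 kinase, fell by a log2 of 1.30, 1.21 and 1.15. ATG7, the activating enzyme, rose by a log2 of 0.29, a call lost under quantile normalization (log2 difference 0.17, adjusted p = 0.0555), and AT3G61960 by 0.22.

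Lipid breakdown and peroxisome genes were called lower in 8 of 14 cases and higher in 2, with 2 falls of at least 2-fold and a median of -0.15. Under median-ratio scaling 10 were called lower and 0 higher. SDP1 (AT5G04040), the main triacylglycerol lipase of seedlings, stood at 43.5, 42.3 and 42.7 TPM in the dark and 7.01, 7.44 and 6.31 TPM in the light and fell by a log2 of 2.47. ACX4, a short-chain acyl-CoA oxidase, fell from 339.8 ± 4.31 to 138 ± 3.05 TPM. The other falls among those named were under 2-fold: PCK1, which makes phosphoenolpyruvate for sugar synthesis, fell by a log2 of 0.44, malate synthase MLS by 0.38 and the thiolase PED1 by 0.35.

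**Figure D3:**
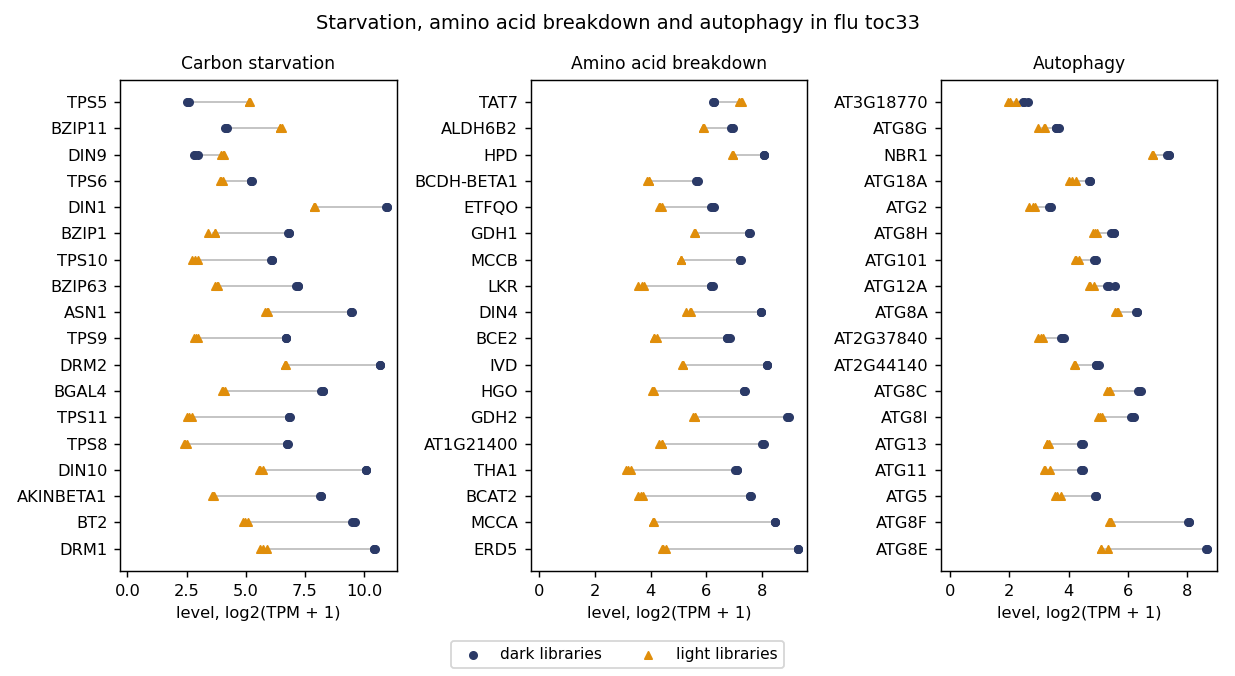
Level of carbon starvation, amino acid breakdown and autophagy genes in every library on the log2(TPM + 1) scale, dark libraries as navy circles and light libraries as orange triangles, with a grey line between group means. In each panel the 18 called members with the largest differences are drawn; TPS5, BZIP11, DIN9 and TAT7 are the ones that lie to the right in light.

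Light signalling genes moved in both directions. Of 30 tested genes 19 rose and 9 fell, 14 and 7 at least 2-fold, and the list median was 0.93. The largest rises were those of small B-box proteins. BBX31 (AT3G21890) stood at 0.372, 0.251 and 0.249 TPM in the dark and 44.8, 39.9 and 42.7 TPM in the light, BBX32 (AT3G21150) at 1.82, 1.59 and 1.37 TPM in the dark and 85.9, 84.6 and 82.1 TPM in the light and BBX30 (AT4G15248) at 0.854, 0.869 and 1.14 TPM in the dark and 26.9, 28.5 and 32.01 TPM in the light libraries. All 3 stood under 2 TPM in every dark library, and their log2 differences were 5.07, 5.04 and 3.95. BBX31 was under 1 TPM in every dark library, so it could be tested only because it was high in light. Over the other 29 genes the list median was 0.91. BBX29 rose from 0.839 ± 0.261 to 23.4 ± 1.79 TPM, and RUP2, which resets the UV-B receptor UVR8, from 9.902 ± 0.886 to 60.9 ± 0.513 TPM. BBX20, which acts with HY5, went down in the same libraries, at 17.03, 16.3 and 16.8 TPM in the dark and 1.23, 1.44 and 1.69 TPM in the light. PHYA (AT1G09570), the far-red phytochrome that accumulates in darkness, stood at 126, 125 and 124 TPM in the dark and 38.02, 40.4 and 40.3 TPM in the light and fell by a log2 of 1.64. The photolyase gene UVR3 fell from 31.4 ± 0.706 to 6.59 ± 0.3704 TPM.

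PIF factors promote growth in darkness and shade, and PIF and shade genes were called higher in 3 of 13 cases and lower in 5, 1 and 4 at least 2-fold. PAR1 (AT2G42870), a brake on shade elongation, stood at 37.7, 38.2 and 39.4 TPM in the dark and 2.45, 3.58 and 2.86 TPM in the light libraries, and CIB1, a partner of cryptochrome 2, at 27.7, 31.98 and 28.6 TPM in the dark and 3.71, 5.401 and 5.47 TPM in the light. PAR1 and CIB1 were thus low in every light library, with log2 differences of -3.32 and -2.39. PIF3 and PIF1 fell by a log2 of 1.00 and 0.68, while PIF7 rose from 7.68 ± 0.737 to 22.7 ± 1.89 TPM and PIF5 by 0.38. HFR1, which binds PIFs, rose by a log2 of 0.41, and the phytochrome substrate PKS1 fell by a log2 of 1.41.

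Photoprotection genes were called higher in 10 of 17 cases and lower in 5, with 6 rises and no fall of at least 2-fold and a median of 0.33. ELIP2 (AT4G14690), an early light-induced protein thought to bind free chlorophyll, stood at 4.63, 5.02 and 4.64 TPM in the dark and 347, 347 and 334 TPM in the light. NPQ4 (AT1G44575), the PsbS protein that triggers heat dissipation, stood at 446, 459.8 and 465 TPM in the dark and 1774, 1769 and 1759.9 TPM in the light libraries and SIG5, a plastid sigma factor induced by blue light, at 14.7, 15.2 and 14.2 TPM in the dark and 237, 251 and 245 TPM in the light libraries. The 3 genes showed no overlap, with log2 differences of 5.90, 1.95 and 3.96. SEP2, a thylakoid protein related to ELIPs, rose by a log2 of 1.32. NPQ1, violaxanthin de-epoxidase, fell from 84.8 ± 0.752 to 48.9 ± 0.825 TPM, and the sigma factors SIG3 and SIG4 by a log2 of 0.50 and 0.53.

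Clock genes were called higher in 15 of 28 cases and lower in 10, 10 and 3 at least 2-fold, and the list median was 0.50. PRR9 (AT2G46790), a morning repressor, stood at 0.258, 0.239 and 0.321 TPM in the dark and 42.5, 46.2 and 46.2 TPM in the light, GI (AT1G22770), which stabilises clock and flowering regulators, at 1.03, 0.836 and 0.842 TPM in the dark and 46.6, 53.7 and 50.5 TPM in the light and LNK1 (AT5G64170), a light-induced coactivator, at 3.66, 3.61 and 2.93 TPM in the dark and 102, 114 and 109.7 TPM in the light. PRR9, GI and LNK1 were under 4 TPM in the dark and over 40 TPM in the light in every library, with log2 differences of 5.17, 4.75 and 4.64. PRR9 was under 1 TPM in every dark library, so it could be tested only because it was high in light. Over the other 27 genes the list median was 0.44. CCA1, a morning Myb repressor, rose from 56.4 ± 0.422 to 170.3 ± 5.37 TPM, and RVE7, a relative, by 1.61. Other Reveille Myb factors moved both ways. RVE2 (AT5G37260) stood at 1019, 993 and 1030.4 TPM in the dark and 210.2, 216 and 217 TPM in the light libraries, and RVE4 and RVE1 fell by a log2 of 1.82 and 1.56. By the sample titles the light group had 1 h more since darkness began, and the titles give no time of day. The effects of light and of that hour cannot be told apart.

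Phenylpropanoid and flavonoid genes, which make UV-screening pigments, were called higher in 26 of 28 cases and lower in 2, 23 and 1 at least 2-fold, and the list median was 2.18. Of the 28, 4 reached 1 TPM in light libraries alone, so they could be tested only because they were high in light. Of the other 24, 22 rose and 2 fell, 19 and 1 at least 2-fold, with a median of 2.24. The summed level was 477, 472 and 466 TPM in the dark libraries and 2572, 2599 and 2551 TPM in the light libraries. PAL1 (AT2G37040), phenylalanine ammonia-lyase at the entry of the pathway, stood at 18.7, 19.8 and 19.4 TPM in the dark and 218, 224 and 221 TPM in the light libraries. F3H (AT3G51240), flavanone 3-hydroxylase, stood at 9.88, 8.69 and 8.94 TPM in the dark and 263, 256 and 253 TPM in the light and CHIL (AT5G05270), a chalcone isomerase-like protein that assists the first committed enzyme, at 9.05, 10.2 and 8.21 TPM in the dark and 122, 116 and 120.2 TPM in the light. For each of the 3 the lowest light library was more than 10 times the highest dark library. The ligase gene 4CL3 rose by a log2 of 3.08 and AT1G06000 by 3.36. MYBL2 (AT1G71030), a Myb repressor of the pathway, stood at 61.1, 62.7 and 59.5 TPM in the dark and 8.25, 7.16 and 7.71 TPM in the light, and fell by a log2 of 2.84. PAL3 fell by a log2 of 0.88, so the members of the PAL family moved in opposite directions.

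**Figure D4:**
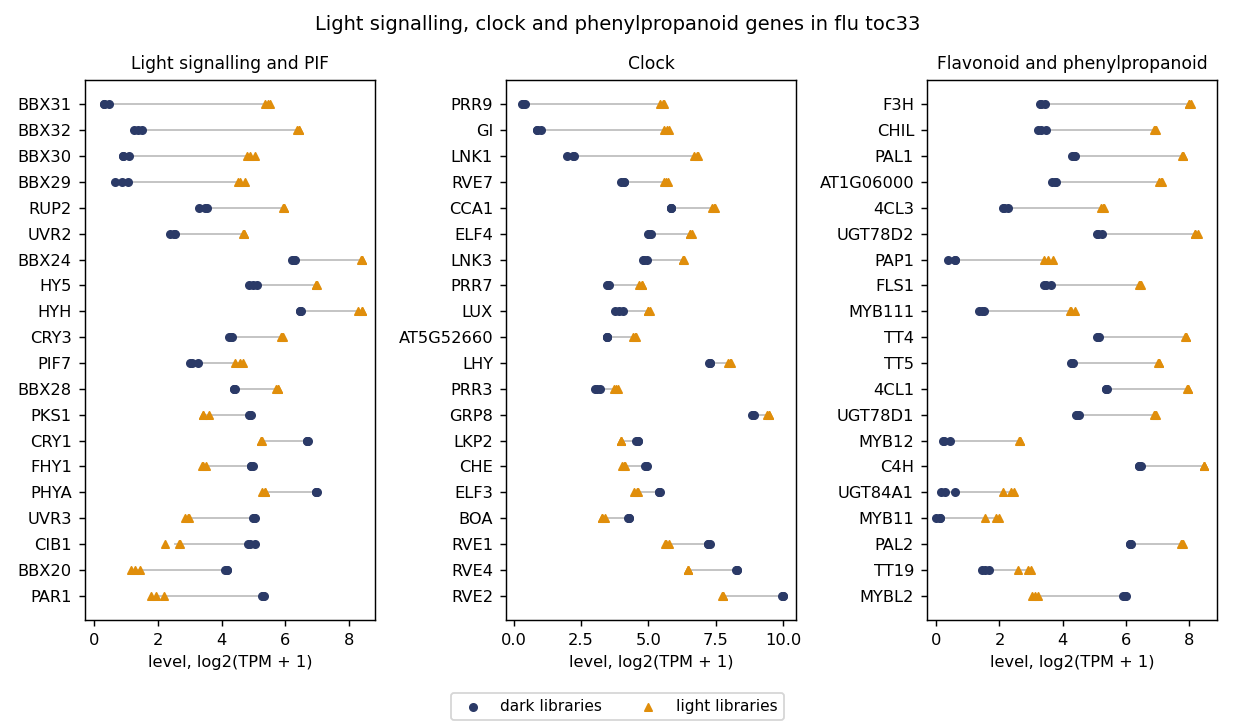
Level of light signalling and PIF, clock, and phenylpropanoid genes in every library on the log2(TPM + 1) scale, dark libraries as navy circles and light libraries as orange triangles, with a grey line between group means. The 20 called members with the largest differences are drawn in each panel; BBX31, PRR9 and F3H rose the furthest, and PAR1, RVE2 and MYBL2 fell the furthest.

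Glucosinolates are sulfur-rich defence compounds. Their genes were called higher in 26 of 31 cases and lower in 2, with 20 rises and no fall of at least 2-fold and a median of 1.45. MYB29 (AT5G07690), which activates the aliphatic branch, stood at 3.11, 4.59 and 3.25 TPM in the dark and 29.5, 30.6 and 33.3 TPM in the light, and MYB34 (AT5G60890), which activates the indole branch, at 16.6, 16.97 and 14.6 TPM in the dark and 97.4, 103 and 103 TPM in the light. CYP79F1, the entry enzyme of the aliphatic branch, stood at 3.08, 3.17 and 2.69 TPM in the dark and 19.04, 21.7 and 22.4 TPM in the light. Both branches thus held genes with light libraries above every dark library. FMO GS-OX1 and FMO GS-OX3, which oxidise the side chain, rose by a log2 of 2.37 and 2.63. In the indole branch, CYP79B3, which turns tryptophan into its oxime, fell from 68.4 ± 1.72 to 36.9 ± 1.63 TPM, and MYB51, a second activator, by a log2 of 0.38.

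Sulfate assimilation genes were called higher in 17 of 26 cases and lower in 7, with 12 rises and no fall of at least 2-fold and a median of 0.66. The 3 APS reductases, which carry out the committed step, rose together. APR1 (AT4G04610) stood at 10.2, 9.28 and 9.65 TPM in the dark and 169.7, 168 and 170.1 TPM in the light, APR2 (AT1G62180) at 57.5, 54.6 and 56.2 TPM in the dark and 627, 627 and 608 TPM in the light libraries and APR3 (AT4G21990) at 24.05, 23.5 and 22.9998 TPM in the dark and 304, 307 and 295 TPM in the light. Their log2 differences were 3.99, 3.45 and 3.63, with no overlap. LSU2, named for its response to low sulfur, rose from 2.94 ± 0.186 to 95.03 ± 5.37 TPM and AT1G04770 from 5.26 ± 0.498 to 60.1 ± 1.18 TPM. Other members fell by less than 2-fold: glutathione synthetase GSHB by a log2 of 0.83, the O-acetylserine thiol-lyase OASB by 0.49 and the sulfate transporter SULTR2;1 by 0.47.

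Nitrogen assimilation genes were called higher in 7 of 24 cases and lower in 14, 1 and 4 at least 2-fold, and the list median was -0.14. The reductases of the pathway parted. NIR1, nitrite reductase, stood at 160.5, 169 and 161 TPM in the dark and 377, 409.8 and 387 TPM in the light libraries and NIA2, a nitrate reductase, at 1203, 1259 and 1221 TPM in the dark and 695, 741 and 721 TPM in the light libraries, log2 differences of 1.26 and -0.77. BT1, a relative of BT2 and a brake on nitrate use, fell from 632 ± 2.37 to 126 ± 2.79 TPM, and NLP7, the nitrate sensor and transcription factor, from 34.7 ± 0.459 to 14.5 ± 0.0914 TPM.

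Starch and sugar genes were called higher in 15 of 25 cases and lower in 5, with 3 rises and no fall of at least 2-fold and a median of 0.32. GBSS1 (AT1G32900), the synthase that makes amylose, stood at 7.83, 8.18 and 8.49 TPM in the dark and 223, 229 and 227 TPM in the light, a log2 difference of 4.63 ± 0.0378 (SE; limma, adjusted p = 3.92e-14). BAM3 (AT4G17090), the main beta-amylase of starch breakdown, stood at 236, 241 and 240.4 TPM in the dark and 889, 906 and 889 TPM in the light libraries. GBSS1 and BAM3 were higher in every light library. APL3, a subunit of the enzyme that makes ADP-glucose, rose by a log2 of 1.22, and APE2, the triose phosphate translocator, fell by a log2 of 0.51.

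The photosynthesis lists had small negative medians, against 0.07 for all genes, while some members moved far. Of photosystem and electron transport genes 61.3% were called lower, and of Calvin cycle and photorespiration genes 60.7%, against 33.3% of all genes. Under quantile normalization 15 of 31 and 15 of 28 were called lower, beside 7377 of all 19005 genes. Under median-ratio scaling 22 of 31 and 19 of 28 were, beside 7303 of 19005. Of 21 light-harvesting genes 10 rose and 8 fell, 3 and 2 at least 2-fold, and the list median was -0.03, which turned to 0.03 under quantile normalization. LHB1B1 (AT2G34430) stood at 427, 462 and 464 TPM in the dark and 37.8, 32.5 and 38.6 TPM in the light libraries and fell by a log2 of 3.60, while LHB1B2 (AT2G34420), which encodes the same kind of antenna protein, stood at 2107, 2287 and 2260.0 TPM in the dark and 3355, 3228 and 3152 TPM in the light libraries and rose by a log2 of 0.55. The pair lie close in sequence, as does CAB1, which fell by a log2 of 0.67, so the division of reads among them is uncertain. LHCB3 (AT5G54270), an antenna protein of photosystem II encoded by its own gene, stood at 356, 365 and 364 TPM in the dark and 1069.7, 1031 and 1038 TPM in the light libraries and rose by a log2 of 1.53. LHCB7 and LHCB4.3 rose by a log2 of 1.59 and 1.07, and LHCB2.3 and LHCA2 fell by a log2 of 1.79 and 0.85.

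Photosystem and electron transport genes were called higher in 8 of 31 cases and lower in 19, 1 and 2 at least 2-fold, and the list median was -0.15. FD1 (AT1G10960), a minor leaf ferredoxin, stood at 322, 329.7 and 324 TPM in the dark and 1459, 1451 and 1402 TPM in the light libraries and rose by a log2 of 2.14. PETE1, a plastocyanin, fell from 252 ± 3.299 to 114 ± 4.85 TPM and PSAD-2, a subunit of photosystem I, from 358 ± 24.7 to 165 ± 3.79 TPM. Calvin cycle and photorespiration genes were called higher in 9 of 28 cases and lower in 17, with 1 fall of at least 2-fold and a median of -0.18. RBCS2B, a small subunit of Rubisco, fell from 4050.3 ± 60.6 to 1905 ± 32.5 TPM, and the copy RBCS1B rose by a log2 of 0.26. RBCS1A, the most abundant copy, fell by a log2 of 0.15. Under quantile normalization its log2 difference was -2.28e-15 and the call was lost. That scaling gives a gene of the same rank in every library the same value, so it cannot show whether RBCS1A changed. CAT2, the peroxisomal catalase, rose from 716 ± 14.99 to 1319.9 ± 5.37 TPM, GLDP1 of the glycine decarboxylase by 0.85 and the aldolase gene FBA1 by 0.81.

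Tetrapyrrole synthesis, the pathway on which flu acts, showed 10 rises and 14 falls among 29 tested genes, 3 of each at least 2-fold, and the list median was -0.09. GUN5 (AT5G13630), a subunit of the chelatase that inserts magnesium, stood at 307, 322 and 309 TPM in the dark and 649, 686 and 654 TPM in the light libraries and its activator GUN4 (AT3G59400) at 138, 145 and 135 TPM in the dark and 304, 331 and 309.5 TPM in the light. GUN4 and GUN5 were higher in every light library, by a log2 of 1.17 and 1.08. FC1, a ferrochelatase induced by stress, rose from 23.999 ± 0.846 to 79.8 ± 1.44 TPM. CHLM (AT4G25080), the methyltransferase that follows the chelatase, stood at 564, 569 and 559.99 TPM in the dark and 241, 236 and 238 TPM in the light libraries and fell by a log2 of 1.24. PORB, which reduces protochlorophyllide in light, fell from 242 ± 1.13 to 104 ± 1.69 TPM, and HEMA2, a minor form of the entry enzyme, from 39.1 ± 0.0464 to 12.98 ± 0.175 TPM. HO1, the haem oxygenase, fell by a log2 of 0.41 and AT1G74470 by 0.43. In chlorophyll breakdown 5 of 9 genes rose and 2 fell, 1 at least 2-fold: CLH1, a chlorophyllase, by 1.06, while ACD2, the red chlorophyll catabolite reductase, rose by a log2 of 1.00 and PPH, the pheophytinase, fell by a log2 of 0.26.

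Genes for carotenoids, tocopherol and ascorbate, which quench or scavenge reactive oxygen in the plastid, were called higher in 15 of 23 cases and lower in 3. Of these 6 rose at least 2-fold and none fell as much, and the list median was 0.54. VTC2 (AT4G26850), the controlling enzyme of ascorbate synthesis, stood at 157, 158 and 159 TPM in the dark and 1168, 1211 and 1189 TPM in the light libraries, a log2 difference of 2.90 ± 0.0227 (SE; limma, adjusted p = 3.40e-14). BCH2 (AT5G52570), a beta-carotene hydroxylase, stood at 8.69, 9.15 and 8.495 TPM in the dark and 75.04, 72.6 and 72.2 TPM in the light, and its relative BCH1 rose by a log2 of 1.74. VTE1, the tocopherol cyclase, rose from 15.5 ± 0.171 to 49.5 ± 1.31 TPM and VTC5, a second copy of the VTC2 enzyme, by 1.13. DXS, the entry enzyme of plastid isoprenoid synthesis, fell from 243 ± 0.897 to 159 ± 7.45 TPM.

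Enzymes that remove reactive oxygen, with iron storage, were called higher in 9 of 21 cases and lower in 9, 2 rises and no fall being at least 2-fold. APX1, cytosolic ascorbate peroxidase, stood at 223, 235 and 233 TPM in the dark and 745, 708 and 721 TPM in the light libraries and rose by a log2 of 1.65. APX2, the heat-induced form, was listed at 0 in every dark library and stood at 3.81 ± 0.595 TPM in light. It could be tested only because it was high in light. Of the other 20 genes 8 rose and 9 fell, 1 rise being at least 2-fold, with a median of 0.01. FER1, a plastid ferritin, and the catalases CAT3 and CAT1 fell by a log2 of 0.98, 0.67 and 0.81.

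Mitochondrial and electrophile stress genes were called higher in 20 of 21 tested cases and lower in 1, with 14 rises of at least 2-fold and a median of 1.80. AOX1A (AT3G22370), the alternative oxidase, stood at 10.9, 11.7 and 11.3 TPM in the dark and 129, 133 and 139 TPM in the light libraries and OM66, an outer mitochondrial AAA ATPase, at 1.87, 2.32 and 2.15 TPM in the dark and 29.2, 33.6 and 30.2 TPM in the light. The glycosyltransferase gene UGT74E2 stood at 1.17, 1.15 and 1.101 TPM in the dark and 48.02, 49.5 and 49.6 TPM in the light. All 3 were more than 10 times higher in every light library. Of the membrane-bound factors that switch on this group, NAC13 rose from 10.7 ± 0.958 to 78.05 ± 1.77 TPM while NAC017 fell by a log2 of 0.29.

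Stress transcription factors and early singlet oxygen genes were called higher in 28 of 38 tested cases and lower in 6, 14 and 5 at least 2-fold, and the list median was 0.80. Of the 38, 7 reached 1 TPM in light libraries alone. Without any 1 light library 21 of 31 were higher, 9 by at least 2-fold, with medians of 0.41 to 0.46, and the median was 0.40 with a pseudocount of 5 TPM and 0.41 with a filter at 5 TPM. The list draws on genes known from flu, and its members are not independent evidence of a direction here. WRKY46 (AT2G46400) stood at 0.662, 1.05 and 0.663 TPM in the dark and 13.6, 13.3 and 11.6 TPM in the light and rose by a log2 of 2.95, and the zinc finger genes ZAT6 and ZAT12 by 2.90 and 2.57. ERF105 was listed at 0 in the dark and stood at 4.399 ± 2.99 TPM in light, with 1 library at 7.85 TPM and the other light libraries under 3 TPM. ERF105 is among the 7 that could be tested only because they were high in light. ERF2, an ethylene response factor, fell from 16.6 ± 0.661 to 4.31 ± 0.421 TPM, ERF1A by a log2 of 1.68 and TCH4, a touch-induced cell wall enzyme, by 1.95.

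The hormone lists differed in direction. Ethylene genes were called lower in 15 of 19 tested cases and higher in 2, with 9 falls and 1 rise of at least 2-fold and a median of -0.99. The receptor gene ERS1 (AT2G40940) stood at 104, 105 and 106 TPM in the dark and 23.2, 25.1 and 23.8 TPM in the light, and EBF2 (AT5G25350), the F-box protein that removes the EIN3 factors, at 135, 133 and 133 TPM in the dark and 29.9, 30.1 and 29.7 TPM in the light. Of the RAV repressors, TEM1 fell from 127 ± 3.89 to 20.2 ± 0.374 TPM and RAV2 from 139 ± 2.51 to 24.1 ± 0.895 TPM. All 4 were lower in every light library. ACS6, an enzyme of ethylene synthesis, stood at 6.08, 5.31 and 5.93 TPM in the dark and 27.6, 28.5 and 31.1 TPM in the light and rose by a log2 of 2.15. The receptor gene EIN4 rose by a log2 of 0.20, a call lost under both scaling alternatives and without dark replicate 3 or light replicate 2, at adjusted p values of 0.0888, 0.0783, 0.0585 and 0.0545.

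Abscisic acid genes were called higher in 20 of 26 cases and lower in 6, 13 and 2 at least 2-fold, and the list median was 1.06. Of the 26, 2 reached 1 TPM in light libraries alone, so they could be tested only because they were high in light. Of the other 24, 18 rose and 6 fell, 11 and 2 at least 2-fold, with a median of 0.88. RD29A (AT5G52310), a dehydration reporter gene, stood at 12.2, 12.2 and 12.4 TPM in the dark and 105, 111 and 104 TPM in the light libraries and RD22 (AT5G25610) at 88.5, 86.8 and 89.5 TPM in the dark and 524, 522 and 529 TPM in the light libraries. HAI1, a phosphatase that dampens the response, rose from 1.19 ± 0.182 to 14.7 ± 0.878 TPM, and RD20 and COR15A by 2.78 and 2.72. The list held 3 receptors and all fell: PYL5 (AT5G05440) stood at 63.4, 61.5 and 63.8 TPM in the dark and 6.47, 5.56 and 5.79 TPM in the light, a log2 difference of -3.21, and PYL6 and PYL4 fell by a log2 of 1.12 and 0.97. The responsive genes named were higher, and these receptors lower, in every light library.

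Jasmonate genes were called higher in 15 of 28 cases and lower in 10, 7 and 2 at least 2-fold, and the list median was 0.15, or 0.02 to 0.08 without any 1 light library. MYC2 (AT1G32640), the main transcription factor, stood at 0.548, 0 and 0 TPM in the dark and 19.1, 23.3 and 25.1 TPM in the light, so it was listed at 0 in 2 of the 3 dark libraries. MYC2 could be tested only because it was high in light. Over the 25 genes that reached 1 TPM in both groups the list median was 0.12. Among enzymes of synthesis AOS rose by a log2 of 1.49, LOX4 by 2.28, AOC3 by 1.84 and LOX3 by 1.56. Of 10 tested JAZ repressors 6 fell and 3 rose, JAZ3 falling from 21.7 ± 0.692 to 7.44 ± 0.515 TPM, JAZ7 by a log2 of 1.51 and JAZ6 by 0.82. Of 16 salicylic acid genes 10 were tested, and 6 rose and 1 fell. PAD4, a lipase-like defence regulator, rose from 5.91 ± 0.233 to 13.5 ± 0.601 TPM, the 1 change of at least 2-fold, and PR2 fell from 3.92 ± 0.478 to 2.05 ± 0.434 TPM.

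Auxin genes were called higher in 6 of 13 tested cases and lower in 6, 1 and 2 at least 2-fold. IAA17, an auxin response repressor, stood at 28.1, 26.8 and 27.7 TPM in the dark and 71.1, 80.6 and 73.4 TPM in the light and rose by a log2 of 1.41, while IAA4 fell from 139 ± 4.53 to 47.1 ± 0.376 TPM and DFL1, which conjugates auxin, by a log2 of 1.42. Of 15 cytokinin and gibberellin genes 7 rose and 6 fell, 2 of each at least 2-fold. RGL2, a DELLA repressor of gibberellin responses, stood at 2.66, 2.33 and 2.02 TPM in the dark and 14.8, 14.6 and 13.97 TPM in the light, and GA20OX2, an enzyme of gibberellin synthesis, fell from 4.22 ± 0.546 to 0.6404 ± 0.2602 TPM. Hypoxia genes fell in 8 of 9 cases, 4 at least 2-fold, and the list median was -0.91. ADH1, alcohol dehydrogenase, fell from 12.2 ± 0.889 to 5.26 ± 0.695 TPM and the transcription factor HRE1 from 9.82 ± 1.29 to 2.83 ± 0.176 TPM, whereas its relative HRE2 (AT2G47520) stood at 0.545, 0.829 and 0.456 TPM in the dark and 25.9, 26.2 and 24.9 TPM in the light and rose by a log2 of 4.06. HRE2 could be tested only because it was high in light, and 1 further hypoxia gene reached 1 TPM in dark libraries alone. The 7 that reached it in both groups all fell, with a median of -1.08.

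Ribosome biogenesis genes were called higher in 13 of 15 cases and lower in 1, with 9 rises of at least 2-fold and a median of 1.06. Their summed level was 913, 912 and 921 TPM in the dark libraries and 1851, 1873 and 1842 TPM in the light libraries. FIB2 (AT4G25630), fibrillarin, which methylates ribosomal RNA, stood at 34.4, 36.8 and 34.5 TPM in the dark and 123, 118 and 119 TPM in the light, and NAP57 (AT3G57150), which makes pseudouridine, at 44.9, 43.97 and 43.7 TPM in the dark and 128, 131 and 125 TPM in the light. NOP56, another part of the methylation complex, stood at 58.4, 58.9 and 57.5 TPM in the dark and 155, 162 and 157 TPM in the light libraries. The light libraries were at least 2 times higher for each. TOR, the kinase that drives growth when nutrients suffice, fell from 12.2 ± 0.336 to 7.27 ± 0.702 TPM. Of 10 cytosolic ribosomal protein genes in the list 8 rose and 1 fell, and the list median was 0.50. RPSAb rose by a log2 of 1.83 and RPL18AA fell by a log2 of 1.98.

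Genes of the cell cycle and replication were called higher in 12 of 18 cases and lower in 1, with 4 rises of at least 2-fold and a median of 0.21. PCNA1 (AT1G07370), the sliding clamp of DNA polymerase, stood at 15.4, 15.2 and 15.3 TPM in the dark and 47.3, 43.97 and 42.1 TPM in the light. MCM2, PRL and MCM5, subunits of the replicative helicase, rose by a log2 of 1.23, 1.08 and 1.05. CDKB2;2, a mitotic kinase, fell by a log2 of 0.28. Proteasome genes were called higher in 19 of 31 cases and lower in 6, none by 2-fold, and the median was 0.15. PAC1 rose by a log2 of 0.46 and PAE2 fell by a log2 of 0.25. In plastid gene expression and chloroplast development 12 of 16 genes rose and 1 fell, and the list median was 0.36. GLK1, GNC and GNL, transcription factors of greening, rose by a log2 of 0.61, 0.69 and 0.82.

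Xyloglucan transferases, which cut and rejoin wall polymers, fell more often than they rose. Of 24 xyloglucan transferase genes 14 fell and 5 rose, 7 and 2 at least 2-fold, and the list median was -0.48, and the summed level was 2383, 2409 and 2447 TPM in the dark libraries and 1111, 1128 and 1136 TPM in the light libraries. XTH24 (AT4G30270) stood at 872, 865 and 882 TPM in the dark and 143, 150.2 and 151 TPM in the light libraries and XTH32 (AT2G36870) at 11.8, 10.6 and 11.6 TPM in the dark and 76.3, 79.6 and 78.8 TPM in the light, log2 differences of -2.55 and 2.69 in opposite directions. XTH6 fell from 213 ± 7.79 to 58.2 ± 3.08 TPM. Expansins, which loosen walls, were called higher in 9 of 22 cases and lower in 7, 4 and 3 at least 2-fold. EXPA15 stood at 12.4, 12.3 and 11.9 TPM in the dark and 63.8, 67.3 and 63.4 TPM in the light and rose by a log2 of 2.32, EXPA5 rose by a log2 of 2.08, EXLA1 fell from 47.9 ± 0.9002 to 6.57 ± 0.597 TPM and EXPA8 by a log2 of 2.13. SAUR genes, early auxin targets, were low: of 13 tested 3 rose and 6 fell. SAUR29 fell by a log2 of 1.40 and SAUR20 rose by a log2 of 1.02.

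Seed storage and oil body genes were the list whose dark libraries disagreed. Their summed level was 1649, 347 and 1157 TPM in the dark libraries and 229.8, 227 and 233 TPM in the light libraries, so dark replicate 2 stood well below the other dark libraries. Of 11 tested genes 10 fell, 9 at least 2-fold, and the list median was -2.10. SESA1 (AT4G27140), an albumin of seeds, stood at 271, 55.8 and 199 TPM in the dark and 16.04, 17.4 and 16.6 TPM in the light libraries, a log2 difference of -3.04 ± 0.442 (SE; limma, adjusted p = 9.98e-05). OLEO1, an oleosin of oil bodies, stood at 92.6, 17.3 and 65.8 TPM in the dark and 10.1, 9.48 and 9.49 TPM in the light. Without dark replicate 2 all 11 fell and the median was -2.83; without dark replicate 1 it was -1.59 with 8 called, and without dark replicate 3 it was -1.88 with 8 called. A robust estimate of the spread left 5 calls. The cause of the spread in the dark libraries was not tested.

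**Figure D5:**
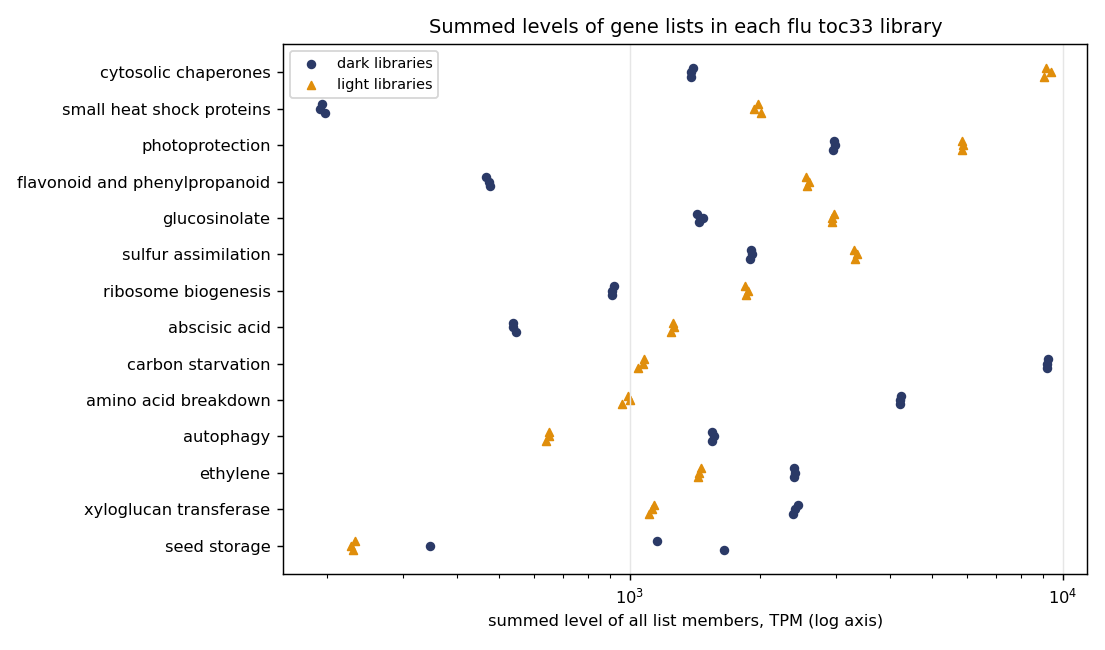
Summed TPM of all members of 14 lists in each library on a log axis, dark libraries as navy circles and light libraries as orange triangles. In all 14 lists the groups lie apart, and seed storage is the list in which the dark libraries are spread.

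By difference in TPM, the genes that gained most were led by HSC70-1, UBQ10 and NPQ4. UBQ10, a polyubiquitin gene, stood at 1029, 1061 and 1051 TPM in the dark and 2453, 2311 and 2413 TPM in the light libraries. NIT1, a nitrilase, rose from 489.9 ± 4.03 to 1596 ± 35.4 TPM, and AT1G09310 from 463 ± 11.5 to 1507 ± 11.1 TPM. The largest losses in TPM were those of AT3G15450 and CAB1. SAG21, a senescence-associated gene, stood at 2526, 2570.4 and 2701 TPM in the dark and 380.4, 372 and 368 TPM in the light libraries and DELTA-TIP, a water channel of the vacuole membrane, at 2604, 2716 and 2704 TPM in the dark and 1095, 1058 and 1060.4 TPM in the light libraries. CA2, a carbonic anhydrase, fell from 3892 ± 83.6 to 2168 ± 68.2 TPM and AT2G45180 from 3349 ± 12.9 to 1096 ± 21.2 TPM. UBQ10 was higher in every light library, and SAG21 and DELTA-TIP were lower.

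Among the 15 largest falls by ratio, AT2G17880, listed as DNA J protein C24, stood at 69.9, 70.1 and 68.2 TPM in the dark and 1.36, 2.17 and 1.94 TPM in the light, and AT1G02610 at 38.2, 39.7 and 38.5 TPM in the dark and 0.653, 0.549 and 0.785 TPM in the light. MEE14 fell from 295 ± 7.11 to 12.1 ± 0.627 TPM, AT3G15630 from 260.3 ± 8.18 to 9.66 ± 0.219 TPM and AT4G26288 from 49.1 ± 2.64 to 1.28 ± 0.407 TPM. All light libraries of these 5 were under 13 TPM. DIP2, named as a DBP-interacting protein, was among the 15 largest rises, at 1.01, 0.617 and 0.405 TPM in the dark and 98.2, 86.2 and 92.002 TPM in the light. At the extremes, 3 genes were listed at 0 in every dark library and stood at 5 TPM or more in every light library: HSP17.6II, HSP21 and AT1G71000. The reverse held for 4 genes: CML30, a calmodulin-like protein gene, at 14.4 ± 0.851 TPM in the dark, AT2G44130, named KISS ME DEADLY 3, at 20.8 ± 0.689 TPM, AT4G38825, named SAUR13, at 6.39 ± 0.641 TPM, and AT5G56555 at 14.004 ± 2.24 TPM.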

How the data were processed

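RNA-seq of flu/toc33-1 seedlings was analysed, 3 dark and 3 light libraries, grouped by title, genotype and treatment labels. The authors deposited 1 table of TPM values for 48359 transcripts, scaled within each library. The submitters' processing notes name the tools kallisto 0.46.2 and sleuth 0.30.0 and the build TAIR10; the transcript index, strand setting and any filter were not given in the sources used here. Depth per sample is unknown from TPM.

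Transcripts were summed to 27655 loci, of which 27445 were found in a RefSeq gene table of assembly TAIR10.1, used for names only. A gene was tested when 3 or more of the 6 libraries reached 1 TPM (68.7%) on log2(TPM + 1) with limma 3.58.1 in R 4.3.3: a mean per group, two-sided moderated tests, a trend of the spread with level, Benjamini-Hochberg adjustment over all genes tested and a threshold of 0.05. The model was tested on simulated data. Python 3.11.15 made the tables (pandas 2.3.3, numpy 2.4.6) and the figures (matplotlib 3.10.9).

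Members and lists (49 lists, 1046 loci) were chosen with earlier results of these data known, so list counts are descriptions, with no test of a list. The 5 family lists (cytosolic ribosome, proteasome, SAUR, expansin, xyloglucan transferase) were matched by name patterns, revised on annotation when the name table was read. Genes were named by rule: TOC33, TOC34, FLU, EX1 and EX2; the 15 largest called rises and 15 largest falls of at least 2-fold without overlap and with 5 TPM in the higher group; the 10 largest gains and 10 largest losses in TPM; and, per list, up to 5 called members in the majority direction and up to 3 in the other. The alternatives tried were leaving out each library, a block for the replicate number, pseudocounts of 0.1 and 5 TPM, a filter at 5 TPM or none, median-ratio scaling, quantile normalization, dropping organelle genes, a robust spread and no trend. A planned description of promoter motifs was not run.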

Additional observations from a re-analysis of the deposited data

How the results depend on the processing

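The counts of called genes and of 2-fold changes stayed within 1.5 times the reported values under the 16 alternatives, with 1 exception. A pseudocount of 5 TPM gave 1952 genes with a 2-fold change, 1065 higher and 887 lower, against 3138, 1794 and 1344, since a larger pseudocount shrinks the log2 differences of low genes. Leaving out each library in turn gave 13618 to 13893 called genes and 2958 to 3083 with a 2-fold change. A named gene was still tested in 5925 pairs of a gene and an alternative. Of these, 5882 kept their side of the threshold, 40 lost the call and 3 gained it (all FLU). No called gene reversed, and the direction of genes not called was not compared. Pairs in which a gene failed the filter are not counted: at 5 TPM 354 of the 376 named genes were tested. The median of all genes, 0.07, became -0.01 under quantile normalization and -0.0019 under median-ratio scaling. Under 1 or both of these scalings the list medians of plastid protein import, light harvesting, reactive oxygen and iron, auxin, expansin and guard cell markers turned sign. Those of cytokinin and gibberellin, SAUR and root markers turned sign under other filters or without 1 library, and the cause was not tested.

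With the replicate number as a block 14449 genes were called, 8138 higher and 6311 lower, and 3138 with a 2-fold change. Deviations of equally numbered dark and light libraries from their group means correlated at -0.01, -0.0047 and 0.0035 across genes, so no shared deviation was seen. Whether equal numbers mark a shared batch is not stated in the labels and cannot be told from these values.

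TPM gives no depth, so the counting error of low genes is unknown. Each group holds 3 libraries of unknown independence, and the share of genes called rests on their small spread. A TPM value is a share of its library, and amounts per cell were not measured.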

Other observations

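Gene families were scanned after the values had been seen; some overlap the lists. Gene symbols were grouped by their letters, which gave 180 families with at least 8 tested members, and those below were picked for how they moved. They are descriptions only, and symbols that share letters need not share descent. Of the 3138 genes with a 2-fold change, 369 belong to a list.

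Tau glutathione transferases, GSTU, which conjugate glutathione to reactive compounds, rose in 17 of 22 cases and none fell, 7 at least 2-fold, with a median of 0.72. GSTU5 stood at 74.9, 73.7 and 71.8 TPM in the dark and 492, 493 and 507 TPM in the light libraries and GSTU7 at 52.8, 49.6 and 52.2 TPM in the dark and 142, 143 and 136 TPM in the light, with no overlap in either. GSTU19, the most abundant, rose from 411 ± 4.78 to 809.6 ± 3.92 TPM (SD, n = 3). Of 9 ubiquitin genes of the UBQ series 7 rose and 1 fell. UBQ11 stood at 312, 313 and 309.7 TPM in the dark and 1314, 1232 and 1255 TPM in the light libraries and UBQ14 at 170.1, 173 and 185 TPM in the dark and 762, 749.8 and 759 TPM in the light libraries, while UBQ3 fell from 849.8 ± 19.3 to 672 ± 8.46 TPM; polyubiquitin genes share sequence, so their division of reads is uncertain.

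Protein arginine methyltransferases, PRMT, rose in 7 of 8 cases, 3 at least 2-fold, with a median of 0.79. PRMT11 stood at 34.1, 32.5 and 33.7 TPM in the dark and 61.3, 66.5 and 65.9 TPM in the light and PRMT3, whose relatives in yeast and animals modify a ribosomal protein, rose by 1.18. Of 8 genes with MCM symbols, MCM2 and MCM5 above included, 6 rose, MCM6, MCM4 and MCM3 by 0.95, 1.01 and 1.05, and MCM8 and MCM9 were not called, at log2 differences of -0.01 and 0.09. Among 9 VAMP genes, which drive membrane fusion, 5 fell, 3 of them at least 2-fold, and 2 rose, VAMP713 by a log2 of 0.31 and VAMP728 by 0.57. VAMP724 fell from 219 ± 7.09 to 82.9 ± 2.28 TPM, VAMP711, of the vacuole, from 254 ± 3.26 to 119 ± 2.75 TPM and VAMP714 by a log2 of 1.12.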
